A study of Mus musculus with 16 samples.

Results

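The genes KREMEN1, KREMEN2, FZD6, FZD7, DKK1, SFRP1, SFRP2, AXIN2, LEF1 and LRP6 encode receptors, antagonists and feedback targets of the WNT pathway. They were taken from the array table by their exact target names, which gave 10 of 30854 target names and 16 of 45281 probes. The group had been picked because KREMEN2 and FZD6 rose with BMP4 in co-cultures, so in the comparison of BMP4 with no growth factor all of its genes are described without a test. KREMEN2 and FZD6 are also untested wherever an array of that comparison enters.

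WNT ligands bind a Frizzled receptor together with LRP5 or LRP6, which stabilizes β-catenin and lets it switch on genes with the TCF/LEF factors. Secreted DKK proteins block LRP5 and LRP6, KREMEN receptors bind DKK and remove LRP6 from the cell surface, and SFRP proteins bind the ligands outside the cell. AXIN2 and LEF1 are both parts of the pathway and targets of it, and AXIN2 feeds back by promoting the destruction of β-catenin. In the early embryo the pathway takes part in forming mesoderm and in the choice between neural and other ectodermal fates.

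Mouse embryonic stem (ES) cells, per the methods of the study a knock-in of EGFP under the τ promoter, were grown over PA6, a stromal cell line of mouse bone marrow, and PA6 was also grown on its own. All cultures were in serum-free medium and were harvested on day 7. Of the co-culture arrays 2 had received no growth factor (-GFs), 3 FGF2 and 2 BMP4, and PA6 grown alone was measured on 3 arrays under each of these conditions. Per the labels FGF2 was given at 20 ng/ml and BMP4 at 10 ng/ml, for 3 days in both cases, while the methods of the study name a lower dose of BMP4. Every co-culture array therefore holds RNA of ES-derived and of stromal cells together. No genotype or treatment other than these separated the groups.

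Total RNA had been hybridized to Illumina MouseWG-6 v2.0 BeadChips, and levels are given as log2 of background corrected, quantile normalized bead intensity. A probe counts as detected where the detection p-value of the file was under 0.05. Before normalization the arrays had a median intensity of 177.9 to 232.2, and 37.3% to 47.0% of probes were detected. Across genes the Pearson r was 0.973 to 0.986 within a group and 0.722 to 0.796 between the kinds of culture. As to the labelled cell types, 7 of 7 pluripotency markers on the array were detected on every co-culture array, whereas DPPA3, ESRRB, TDGF1 and UTF1 were undetected on all 9 PA6 arrays. Of the remaining 3, POU5F1 was detected on 4 PA6 arrays, NANOG on 2 and ZFP42 on 2, one of them with BMP4 at 9.06. The stromal markers except POSTN were detected in both kinds of culture. A gene is called where its adjusted p (limma) was under 0.1 and its log2 fold change over 1 in size.

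KREMEN1 and DKK1 could not be followed. DKK1, the secreted LRP6 antagonist, was detected on 0 of 16 arrays, and KREMEN1, a DKK receptor, on 2 of 16, which were -GFs replicate 3 and BMP4 replicate 3 of the PA6 mono-cultures. The other 8 genes passed the filter, which asked for detection on every array of at least 1 group. KREMEN2 and LEF1 passed through the BMP4 co-cultures alone, so they had to be high there. Both are among the genes tested, but their differences between groups in which they were mostly undetected are of background values. FZD7, SFRP1, SFRP2 and LRP6 were detected on all 16 arrays, FZD6 on 15 and AXIN2 on 12.

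The promoters of 3 of these genes are shown because they had the largest changes between groups, KREMEN2 with BMP4 and AXIN2 and SFRP2 between the kinds of culture. The sequences are the 250 bases before the start of the gene in RefSeq, build GRCm38.p6, at chr17:23745830-23746079 (minus strand) for Kremen2, chr11:108920099-108920348 (plus strand) for Axin2 and chr3:83766071-83766320 (plus strand) for Sfrp2. Capitals mark the SMAD box CAGAC, a short sequence bound by SMAD proteins, on either strand.
Kremen2: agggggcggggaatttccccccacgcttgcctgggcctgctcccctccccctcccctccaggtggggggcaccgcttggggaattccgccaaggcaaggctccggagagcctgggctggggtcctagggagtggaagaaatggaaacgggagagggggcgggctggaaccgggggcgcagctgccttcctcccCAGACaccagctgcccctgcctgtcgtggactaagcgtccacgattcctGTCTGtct
Axin2: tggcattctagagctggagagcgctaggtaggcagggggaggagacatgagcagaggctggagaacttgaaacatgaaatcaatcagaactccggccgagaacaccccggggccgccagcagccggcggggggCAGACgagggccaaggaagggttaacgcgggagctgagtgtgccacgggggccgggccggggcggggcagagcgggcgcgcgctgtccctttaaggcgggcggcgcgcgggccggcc
Sfrp2: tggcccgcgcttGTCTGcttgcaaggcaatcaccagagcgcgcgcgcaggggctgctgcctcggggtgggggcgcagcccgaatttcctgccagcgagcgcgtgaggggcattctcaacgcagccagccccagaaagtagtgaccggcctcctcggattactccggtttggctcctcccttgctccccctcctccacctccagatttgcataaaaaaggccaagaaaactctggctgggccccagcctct
The Kremen2 window held 2 SMAD boxes, 57 and 8 bases before the start, the Axin2 window 1 at 117 bases and the Sfrp2 window 1 at 238 bases. The TCF/LEF core CTTTG, searched on both strands, was in none of these 3 windows. Over 32851 mouse promoters of this length 42.2% held a SMAD box and 48.6% a TCF/LEF core, and both motifs are so short that a match is only a description. The table had entries for 6 of the 10 genes, and among these Fzd7, Dkk1 and Lef1 held the TCF/LEF core, Dkk1 with 4 copies. Of the 9 entries of these genes 6 held a TCF/LEF core and 6 a SMAD box, and the latter included entries of Lef1. The GC-rich SMAD element GGCGCC was searched as well. It was in 2 entries, each of Lef1, and in 9.59% of all promoters.

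KREMEN2 stood out with BMP4 in co-cultures. It was at 11.12 and 11.18 with BMP4, against 5.91 and 5.64 without growth factors, where it was undetected on both arrays. With FGF2 it was at 6.43, 6.15 and 6.68 and was detected on 1 of these 3 arrays. In PA6 it was at 6.26, 5.92 and 6.95 without growth factors, at 5.83, 5.85 and 5.99 with FGF2 and at 5.92, 6.29 and 5.93 with BMP4. The BMP4 co-cultures did not overlap any other group, while the other 5 groups overlapped their neighbours in the order of means, from FGF2 co-cultures (6.42) down to -GFs co-cultures (5.78). KREMEN2 with BMP4 in co-cultures was at least 24.9-fold higher than the detection level of the -GFs arrays and at least 20.0-fold higher than that of PA6 with BMP4. In these mixed cultures a rise in the number of expressing cells and a rise in RNA per cell cannot be told apart.

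FZD6, a Frizzled receptor, followed with a smaller difference. Its brighter probe was at 9.69 and 10.25 with BMP4 in co-cultures and at 8.10 and 8.11 without growth factors. With FGF2 it was at 7.62, 8.20 and 7.74. The BMP4 arrays again lay above every other array, including those of PA6 at 7.47, 7.70 and 8.69 without growth factors, 6.39, 7.68 and 7.82 with FGF2 and 7.58 to 8.07 with BMP4. The log2 change with BMP4 in co-cultures was 1.86 ± 0.27 (SE), or 3.64-fold, and the dimmer probe gave 1.32 ± 0.31 (SE), or 2.50-fold. On the dimmer probe one BMP4 co-culture array, at 8.54, lay below the highest PA6 array without growth factors, at 8.76, so the separation from PA6 held for the brighter probe alone.

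Epithelial markers other than GRHL3 were highest in the BMP4 co-cultures, as KREMEN2 and FZD6 were. All 7 markers of epidermal and simple epithelium (KRT5, KRT14, KRT15, KRT8, KRT18, TRP63 and GRHL3) were detected on both BMP4 co-culture arrays, with a summed normalized intensity of 18486 and 32690. Without growth factors the sum was 2041 to 2532, with KRT5, KRT14 and TRP63 undetected, and with FGF2 it was 1599 to 2069, with KRT5 undetected. KRT14 (group mean 13.31) and KRT15 (12.77) were the brightest in the BMP4 co-cultures. GRHL3 was no higher in co-cultures with BMP4 (7.75) than with FGF2 (7.87), and was at 6.67 without growth factors. In PA6 the sum was at most 465.5. TRP63 was detected on most PA6 arrays, with means of 7.52, 6.84 and 7.38 with no growth factor, FGF2 and BMP4. The part of epithelial cells in the values of KREMEN2 and FZD6 was not tested.

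The genes whose levels ran closest to KREMEN2 over the 7 co-culture arrays were GPKOW (Pearson r 0.997), WNT6 (0.996), TRP63 (0.996), 4631405K08RIK (0.992) and 9530027K23RIK (0.990). Those closest to FZD6 were GATA3 (0.987), OLFR332 (0.987), GM941 (0.984), FOXI1 (0.984) and 9530082M04RIK (0.983). TRP63 and GATA3 are transcription factors of epidermis and other epithelia. These values describe 7 arrays in which the 2 BMP4 arrays carry most of the spread, and 54 of 14828 genes had an r over 0.95 with KREMEN2 and 27 with FZD6.

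**Figure D1:**
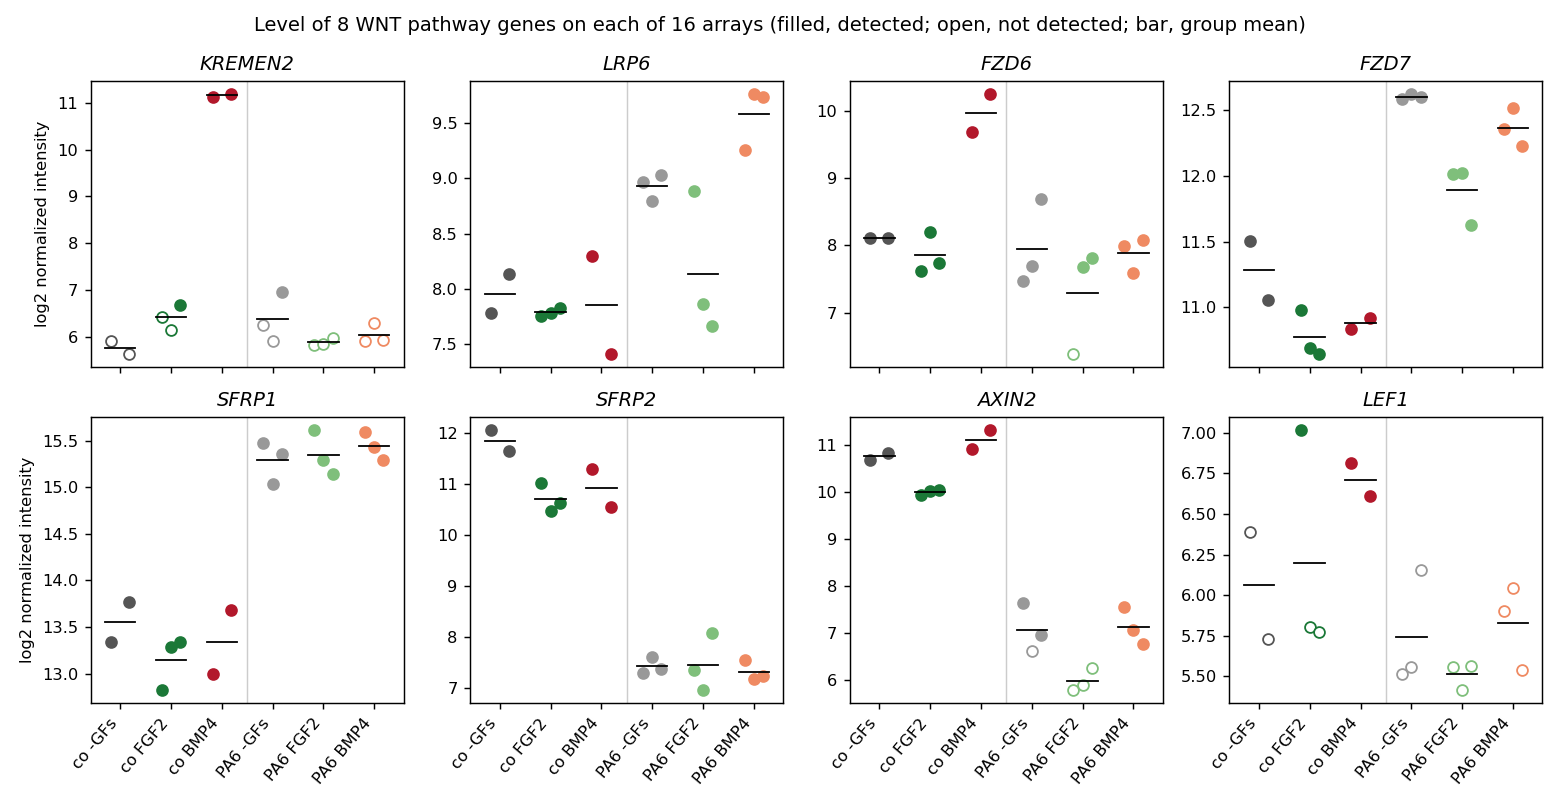
Levels of 8 genes (log2 normalized intensity, a separate vertical scale for each gene) on each of 16 arrays by group, where co stands for co-culture, filled points were detected, open points were not and bars are group means. KREMEN2 and FZD6 are highest on both BMP4 co-culture arrays, AXIN2 and SFRP2 lie higher in all co-cultures, and SFRP1 and FZD7 lie higher in all PA6 arrays.

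The remaining genes are described here for BMP4 against -GFs in co-cultures without a test, as that comparison chose the group, and over all genes it called 3.76% of 14829, with 2.28% higher and 1.48% lower. AXIN2 was at 10.90 and 11.31 with BMP4 and at 10.68 and 10.82 without growth factors, a log2 change of 0.35 ± 0.20 (SE) with no overlap. Leaving out BMP4 replicate 1 or 2 gave 0.56 or 0.15. LEF1 was detected on both BMP4 arrays (6.81 and 6.61) and on neither -GFs array (6.39 and 5.73), which makes it at least 1.14-fold higher. The 3 other LEF1 probes did not pass the filter. SFRP2 was at 11.29 and 10.54 with BMP4 and at 12.05 and 11.64 without growth factors, a change of -0.93 ± 0.32 (SE). With 1 array left out it ran from -1.31 to -0.56. FZD7 (-0.40 ± 0.23, SE), SFRP1 (-0.22 ± 0.31, SE) and LRP6 (-0.10 ± 0.30, SE) differed by less than 0.5 on the log2 scale. With 1 array left out FZD7 ran from -0.63 to -0.18, SFRP1 from -0.56 to 0.13 and LRP6 from -0.55 to 0.34.

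FGF2 was compared with no growth factor in co-cultures to see which WNT genes answer to the other factor. SFRP2, the secreted WNT binder, fell, and it was the only one of 6 genes tested that was called, in a comparison that called 7.42% of all genes, 5.06% as higher and 2.36% as lower. It was at 11.01, 10.47 and 10.62 with FGF2 and at 12.05 and 11.64 without growth factors. The groups did not overlap, and the log2 change was -1.15 ± 0.29 (SE), or 2.21-fold lower (adjusted p = 0.0676, limma). The call was lost without -GFs replicate 1 (-0.94), -GFs replicate 2 (-1.35), FGF2 replicate 2 (-1.03) or FGF2 replicate 3 (-1.11), with adjusted p of 0.117 to 0.271.

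AXIN2 was also lower with FGF2, under the limit on size. It was at 9.93, 10.01 and 10.03, below the -GFs arrays at 10.68 and 10.82, and the change was -0.76 ± 0.19 (SE, adjusted p = 0.0600). FZD7 was at 10.98, 10.69 and 10.64 with FGF2 and at 11.51 and 11.06 without growth factors, a change of -0.51 ± 0.21 (SE, adjusted p = 0.201) that did not pass. SFRP1 and LRP6 did not pass either, with changes of -0.41 (adjusted p = 0.449) and -0.17 (adjusted p = 0.773), and LEF1 was detected on 1 of these 5 arrays. FZD6, not tested here, differed by -0.25 on its brighter probe and by 0.05 ± 0.28 (SE) on the dimmer one. In these co-cultures the summed intensity of the pluripotency markers was 49905 to 59058 with FGF2, 20245 to 35929 with BMP4 and 10584 to 10802 without growth factors, and that of the neural markers was 30072 to 32535, 23047 to 26664 and 42873 to 60558. The endothelial markers summed to 2266 to 3793, 1970 to 2551 and 555.3 to 704.4 in the same order. PECAM1 was the brightest of them (group means 10.63, 9.36 and 7.37), and TEK, EMCN and VWF were higher with both factors. KDR (6.45, 6.31 and 6.54) was higher with neither, and ESAM (7.06, 8.24 and 7.21) with BMP4 alone. CDH5, TIE1 and ICAM2 were undetected without growth factors and with FGF2, and each was detected on 1 of the 2 BMP4 arrays. The part of these cell types in the changes of SFRP2 and AXIN2 was not tested.

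BMP4 and FGF2 were then set against each other. AXIN2, the feedback inhibitor, was higher with BMP4 by 1.11 ± 0.19 on the log2 scale (SE), or 2.16-fold (adjusted p = 0.0721, limma), the only call among 6 genes tested. Over all genes this comparison called 1.44%, with 0.755% higher and 0.688% lower under BMP4. The BMP4 arrays at 10.90 and 11.31 lay clear of the FGF2 arrays at 9.93 to 10.03. The comparison shares its FGF2 and BMP4 arrays with the comparisons against -GFs. The call was lost without BMP4 replicate 2 (0.91), without either -GFs array (1.11 in each case) and without FGF2 replicate 1 (1.09), FGF2 replicate 2 (1.13) or FGF2 replicate 3 (1.13). The adjusted p then ran from 0.104 to 0.258. It was also lost with the replicate numbers as a block (1.13, adjusted p = 0.156).

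The other 5 genes gave no call between the factors. LEF1 was detected on 1 of the 3 FGF2 arrays, so no difference is given for it. The log2 differences, BMP4 minus FGF2, were 0.21 for SFRP2 (95% interval -0.47 to 0.90), 0.19 for SFRP1 (-0.47 to 0.86), 0.11 for FZD7 (-0.38 to 0.59) and 0.07 for LRP6 (-0.58 to 0.72). The 4 intervals leave out a change past the limit of 1 in either direction.

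**Figure D2:**
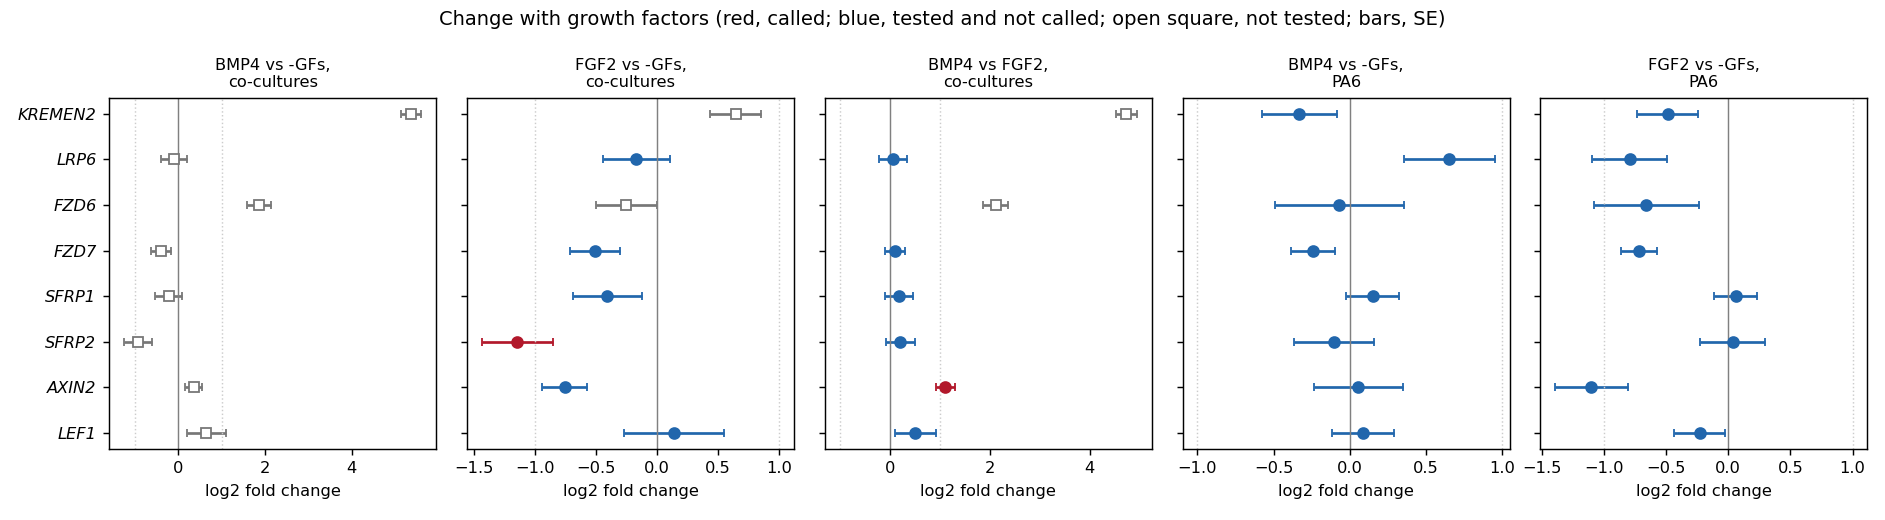
Log2 fold change of 8 genes in 5 comparisons of growth factors, with bars for the SE and a horizontal scale of its own in each panel, where dotted lines mark a change of 1. Red points were called, blue points were tested and not called, and open squares were not tested: SFRP2 with FGF2 (-1.15) and AXIN2 between BMP4 and FGF2 (1.11) are the 2 calls.

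In PA6 alone neither factor gave a call among these genes. FGF2 called 0 of 8 genes tested, where it called 0.027% of all genes (0.00674% higher and 0.0202% lower, 4 genes in all, and 1536 at an unadjusted p under 0.05), and BMP4 called 0 of 8, where it called 0% (0 genes, and 1330 at an unadjusted p under 0.05, limma). The nearest were FZD7 and AXIN2 with FGF2. FZD7 was at 12.02, 12.02 and 11.63 with FGF2 and at 12.59, 12.63 and 12.60 without growth factors, a change of -0.72 ± 0.14 (SE, adjusted p = 0.177) with no overlap. AXIN2 was undetected on all 3 arrays with FGF2 (5.78, 5.88 and 6.24) and was at 7.64, 6.61 and 6.95 without growth factors, where 2 of 3 arrays detected it. That makes it at least 1.22-fold lower, with a fitted change of -1.10 ± 0.29 (SE, adjusted p = 0.261).

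LRP6, the WNT co-receptor, had its lowest and highest PA6 groups under the 2 factors. It was at 8.88, 7.86 and 7.66 with FGF2, at 8.97, 8.79 and 9.03 without growth factors and at 9.26, 9.76 and 9.73 with BMP4. The BMP4 arrays lay above the -GFs arrays without overlap (0.66 ± 0.30, SE, adjusted p = 0.560), and the FGF2 arrays overlapped them (-0.79 ± 0.30, SE, adjusted p = 0.425). KREMEN2, whose co-culture level was far higher with BMP4, was undetected on all 3 PA6 arrays with BMP4, and FZD6 differed there from -GFs by -0.07 ± 0.42 (SE, 95% interval -1.02 to 0.89, adjusted p = 0.973). The adipocyte markers, summed, ran from 13610 to 120778 in PA6 with BMP4, from 2881 to 18697 without growth factors and from 2267 to 3358 with FGF2. In the same order ADIPOQ had group means of 13.75, 9.87 and 7.65. PPARG (11.67, 10.57 and 10.45) and CEBPA (9.98, 9.20 and 8.89) differed less, and FABP4 was undetected on every array. The part of these markers in the LRP6 values was not tested.

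Whether FGF2 acted differently in co-cultures and in PA6 was tested directly. None of 6 genes was called, in a test that called 7.92% of all genes, 4.94% as positive and 2.99% as negative. SFRP2 came nearest, with an FGF2 effect of -1.15 in co-cultures and 0.04 in PA6, a difference of -1.18 ± 0.41 (SE, adjusted p = 0.108). It was called without co-culture FGF2 replicate 1 (-1.34), PA6 FGF2 replicate 2 (-1.43), co-culture BMP4 replicate 1 (-1.19) or co-culture BMP4 replicate 2 (-1.18). For AXIN2 the effects were -0.76 and -1.10, with a difference of 0.34 ± 0.38 (SE, adjusted p = 0.655), and for FZD7 they were -0.51 and -0.72, with a difference of 0.20 ± 0.24 (SE, adjusted p = 0.674).

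The kinds of culture were then compared under each condition. SFRP2 and AXIN2 were higher in co-cultures and SFRP1 and FZD7 were higher in PA6, each of them called with no growth factor, FGF2 and BMP4. These comparisons called 44.2%, 46.4% and 42.5% of all genes, so a call is common there. By direction the shares were 22.4% higher and 21.8% lower in co-cultures without growth factors, 23.5% and 23% with FGF2, and 22.1% and 20.4% with BMP4. Without growth factors 4 of 6 genes tested were called, with FGF2 4 of 8 and with BMP4 5 of 6.

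The 2 SFRP genes went in opposite directions. SFRP2 was at 7.29, 7.61 and 7.37 in PA6 without growth factors against 12.05 and 11.64 in co-cultures, a log2 difference of 4.42 ± 0.31 (SE, adjusted p = 4.33e-08), or 21.5-fold. With FGF2 the difference was 3.24 ± 0.27 (SE) and with BMP4 3.60 ± 0.31 (SE). SFRP1 was at 15.47, 15.03 and 15.36 in PA6 without growth factors against 13.34 and 13.77 in co-cultures, a difference of -1.73 ± 0.24 (SE, adjusted p = 3.23e-05), or 3.32-fold lower. With FGF2 it was at 15.61, 15.29 and 15.14 against 12.82, 13.28 and 13.34 (-2.20 ± 0.22, SE), and with BMP4 at 15.29 to 15.60 against at most 13.69 (-2.10 ± 0.24, SE). No co-culture array overlapped a PA6 array for either gene, and the second SFRP1 probe gave -1.56, -2.19 and -1.92.

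AXIN2 was 12.8-fold higher in co-cultures than in PA6 without growth factors (3.68 ± 0.28, SE, adjusted p = 1.20e-07). With FGF2, where PA6 had it undetected, it was at least 9.23-fold higher (4.02 ± 0.25, SE), and with BMP4, where PA6 had 7.55, 7.06 and 6.76, it was 15.8-fold higher (3.98 ± 0.28, SE). The order of its group means ran from BMP4 (11.10) to -GFs (10.75) and FGF2 (9.99) in co-cultures, with no overlap between neighbours, and then to PA6 with BMP4 (7.12), without growth factors (7.07) and with FGF2 (5.97), of which the first pair overlapped.

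FZD7, a Frizzled receptor, was higher in PA6. Its difference, co-culture minus PA6, was -1.32 ± 0.18 (SE, adjusted p = 2.08e-05) without growth factors, -1.12 ± 0.16 (SE) with FGF2 and -1.49 ± 0.18 (SE) with BMP4. The second FZD7 probe did not pass the filter. LRP6 differed by -0.97 ± 0.33 (SE, adjusted p = 0.0187) without growth factors, just under the limit on size, by -0.35 ± 0.29 (SE, adjusted p = 0.303) with FGF2 and by -1.73 ± 0.33 (SE, adjusted p = 0.000426) with BMP4, where it was called. With BMP4 it was at 8.30 and 7.41 in co-cultures. Without growth factors LRP6 was called once co-culture -GFs replicate 2 (-1.16) or PA6 -GFs replicate 2 (-1.04) was left out.

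LEF1, the nuclear partner of β-catenin, gave differences of 0.32, 0.68 and 0.88 with no growth factor, FGF2 and BMP4, and as it was undetected on all 9 PA6 arrays these are differences from background. KREMEN2 with FGF2 was near background in both kinds of culture, detected on 1 of 3 co-culture arrays and on none of PA6. For FZD6 with FGF2 the difference was 0.56 ± 0.37 (SE, adjusted p = 0.198), which gave no call. The dimmer FZD6 probe gave -0.64, so the direction for FZD6 is not settled.

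Stromal markers other than LUM were lower in co-cultures under every condition, as SFRP1 and FZD7 were. The 8 markers had a summed intensity of 49458 to 62033 in co-cultures and of 91136 to 144236 in PA6. DCN was the brightest of them, with group means of 15.21 to 15.40 in co-cultures and 15.89 to 15.93 in PA6. LUM was at 8.27, 9.08 and 9.48 in co-cultures with no growth factor, FGF2 and BMP4, against 8.96, 9.05 and 8.62 in PA6. All 9 neural markers were undetected on every PA6 array, while DCX, HES5, STMN2 and SOX11 were detected on every co-culture array beside the higher SFRP2 and AXIN2. The part of these cell types in the 4 differences was not tested.

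**Figure D3:**
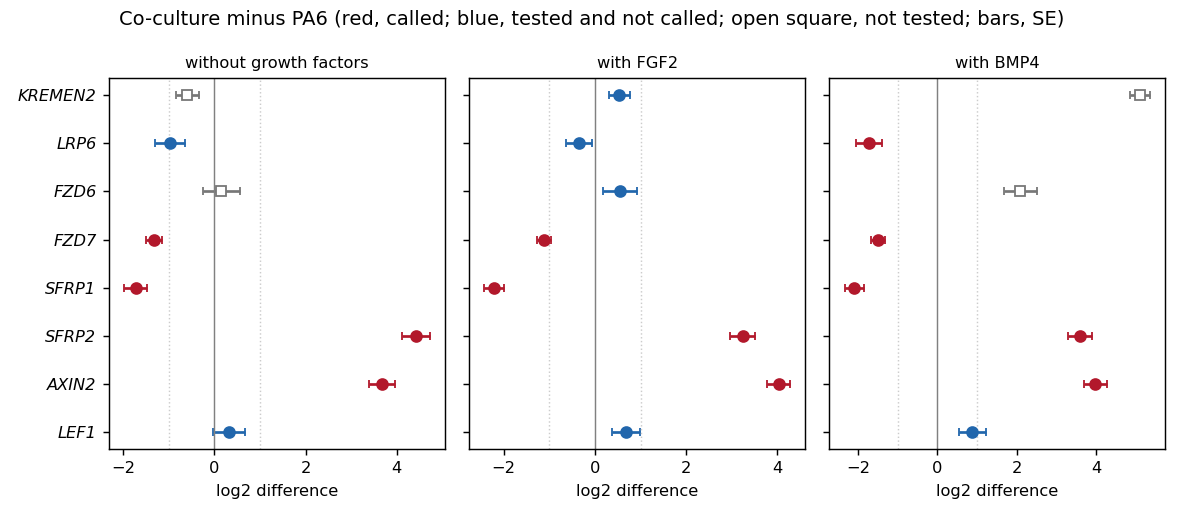
Log2 difference, co-culture minus PA6, of 8 genes under 3 conditions, with bars for the SE and dotted lines at a difference of 1, where red points were called, blue points were tested and not called and open squares were not tested. SFRP2 and AXIN2 lie to the right and SFRP1 and FZD7 to the left in all 3 panels, and KREMEN2 and FZD6 lie far to the right with BMP4 alone.

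The wider pathway was followed through 92 other genes in 5 lists, of which 62 could be tested. Like the genes above, these lists were chosen with results of these arrays known. With BMP4 against -GFs in co-cultures 8 of the 62 rose and 1 fell, beside 3.76% of all genes called, and the median change over the 62 was 0.07 against -0.0015 over all genes. Ligands made up 4 of the 8. WNT6, WNT10A and WNT3 passed the filter through the BMP4 co-cultures alone, so they had to be higher there and their calls are a description. WNT6 and WNT10A were undetected without growth factors and were at least 18.9-fold and at least 5.56-fold higher, and WNT4 rose by 2.61 ± 0.37 (SE, adjusted p = 0.0240). The remaining ligand, WNT3, also undetected on both -GFs arrays, came out at least 3.81-fold higher.

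Among secreted regulators SOSTDC1, which antagonizes both BMP and WNT signals, rose by 3.08 ± 0.51 (SE, adjusted p = 0.0368). The targets SP5 and TNFRSF19, named after their values were seen, as were WNT3 and RSPO3, rose by 2.13 ± 0.47 (SE) and 1.68 ± 0.33 (SE), and RSPO3, a secreted enhancer of WNT signalling, by 1.29 ± 0.26 (SE). WNT7B fell by 1.48 on the log2 scale. None of 12 receptors and co-receptors and none of 22 genes of the cytoplasm and nucleus was called, so among the Frizzled genes outside the picked group no rise with BMP4 passed the test. The number of calls was 3 without BMP4 replicate 1 and 5 without BMP4 replicate 2.

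With FGF2 against -GFs in co-cultures 1 of the 62 rose and 6 fell, beside 7.42% of all genes called, with a median of -0.09 against -0.06 over all genes. The receptor FZD5 rose by 1.26 ± 0.17 (SE, adjusted p = 0.0111). The receptor FZD3 (-1.56 ± 0.45, SE, adjusted p = 0.0939), the secreted antagonist FRZB (-1.66 ± 0.37, SE, adjusted p = 0.0480) and the ligands WNT3A (-1.95 ± 0.47, SE, adjusted p = 0.0580) and WNT7B (-1.34 ± 0.28, SE, adjusted p = 0.0392) fell. FZD10 (-1.27) and FZD2 (-1.07), named after their values were seen, fell too. The receptor list thus held 4 of the 7 calls, and no gene of the cytoplasm and nucleus list or of the target list was called. Without -GFs replicate 1 the count was 2.

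Between BMP4 and FGF2 in co-cultures 7 of the 62 were called and all 7 were higher with BMP4, beside 1.44% of all genes called, with a median of 0.38 against 0.04 over all genes. With each array scaled to the same median the calls higher with BMP4 made up 63.8% over all genes in place of 52.3%, and 12 of the 62 were called. Ligands were 5 of the 7, with WNT6 at least 19.8-fold higher, WNT10A at least 5.80-fold, WNT3A by 2.78 ± 0.47 (SE) and WNT4 by 2.62 ± 0.34 (SE). WNT6, WNT10A and WNT3 passed the filter through the BMP4 co-cultures alone, so here too they had to be higher and their calls are a description. NKD1, a feedback inhibitor like AXIN2, differed by 1.20 ± 0.19 (SE, adjusted p = 0.0625), and WNT3 and FZD10 by 2.07 and 1.49, all 3 named after their values were seen. The count fell to 3 without FGF2 replicate 1, to 4 without FGF2 replicate 2, to 3 without BMP4 replicate 1 and to 2 without BMP4 replicate 2.

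**Figure D4:**
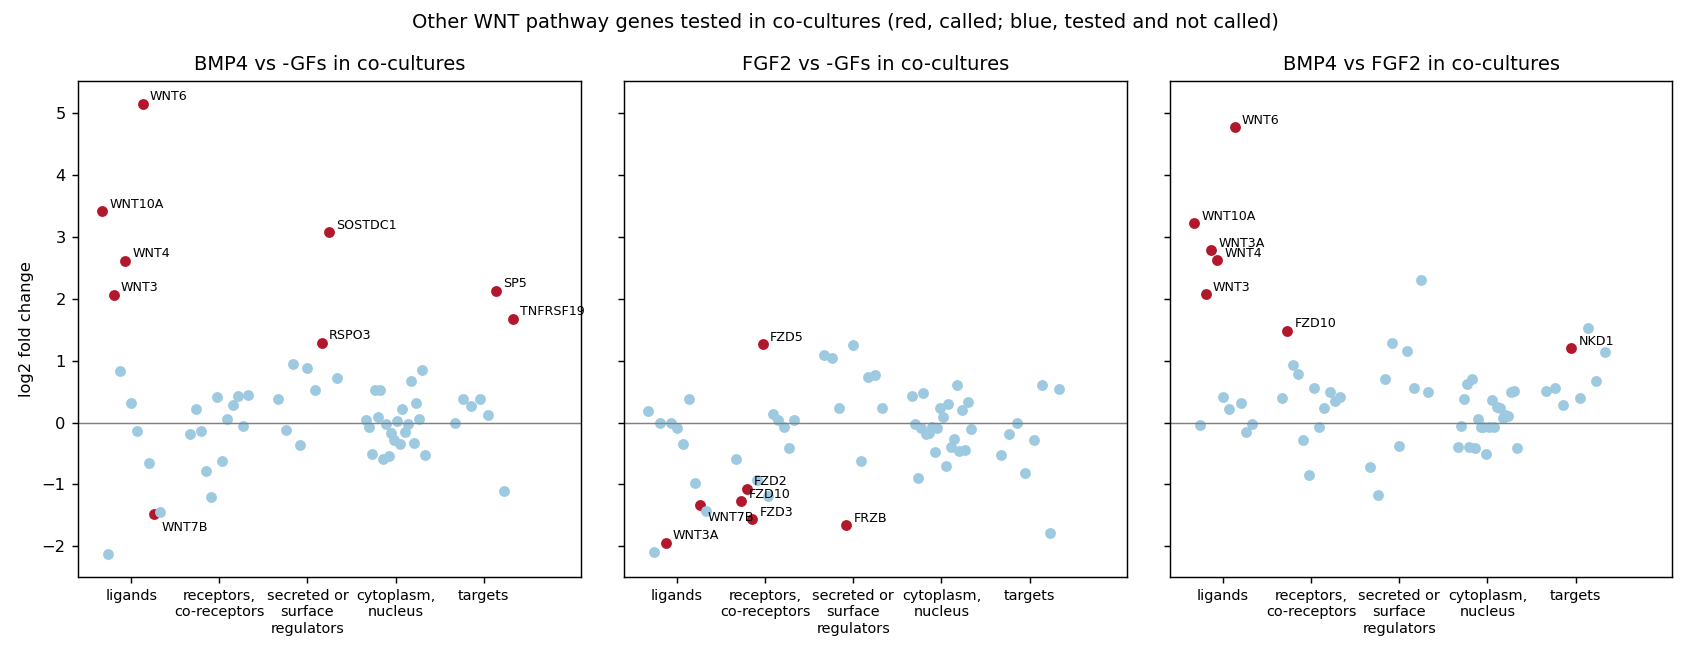
Log2 fold change of 62 other WNT pathway genes in 3 co-culture comparisons, grouped by role, where each point is 1 gene, red points were called and are named, and blue points were tested and not called. Rising ligands are 4 of the 9 calls for BMP4 against -GFs and 5 of the 7 for BMP4 against FGF2. Among these ligands WNT6, WNT10A and WNT3 had to be higher with BMP4, as they passed the filter through the BMP4 co-cultures alone. For FGF2 against -GFs 6 of the 7 calls are falls, and the genes of the cytoplasm and nucleus hold no call in any panel.

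In PA6 none of the 62 was called with either factor, with medians of -0.06 for FGF2 and -0.07 for BMP4. Between the kinds of culture 35, 31 and 37 of the 62 were called with no growth factor, FGF2 and BMP4, beside the 44.2%, 46.4% and 42.5% of all genes. The target list was mostly higher in co-cultures, with 6 higher and 1 lower of 8 without growth factors and a median of 1.93. Of those 6, T, NKD1, NKD2 and TNFRSF19 were undetected on all 3 PA6 arrays without growth factors, so their differences are from background. Genes that passed the filter through co-cultures alone had to be higher there. The receptor list was called lower more often than higher, with 2 higher and 6 lower of 12 and a median of -1.12. TLE2, a corepressor that binds TCF/LEF factors, was lower in co-cultures, with log2 differences of -4.97 ± 0.29 without growth factors (SE, adjusted p = 7.60e-09), -5.32 ± 0.26 with FGF2 (SE) and -4.81 ± 0.29 with BMP4 (SE). The receptor FZD10 was undetected on all 9 PA6 arrays and was at least 28.6-fold, 11.0-fold and 29.8-fold higher in co-cultures in the same order of conditions. WNT7B, undetected there too, was at least 32.8-fold higher without growth factors. FZD10 and WNT7B thus passed the filter through co-cultures alone, so their direction was fixed and their differences are a description. RSPO3 was lower in co-cultures, with log2 differences of -3.85, -3.19 and -2.75.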

How the data were processed

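The deposited table gave, for each of 16 arrays, an average bead intensity per probe that the authors had not normalized between arrays, together with its detection p-value, both from GenomeStudio 2011.01 per the labels. No genome build was given in the sources used here. For their own comparisons the authors used cubic-spline normalized values, which were not used here.

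Intensities were background corrected from the detection p-values (normexp, limma 3.58.1, R 4.3.3), raised by an offset of 16, quantile normalized and put on the log2 scale. Of 45281 probes, 20880 were detected on every array of at least 1 group, and the probe with the largest mean stood for each of 14829 genes. Linear models (limma) used the 7 co-culture arrays, the 9 PA6 arrays or, between cultures, all 16, with Benjamini-Hochberg adjustment over all genes. Bounds written as at least N-fold set the mean of the higher group against the detection level of the arrays of the lower group, or the level of the gene where that was higher. Fits were tested on simulated data.

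The genes and lists were chosen with earlier results of these data known. The genes named are the 10 members of the group, the 5 genes most correlated with KREMEN2 and with FZD6, and, per comparison, up to 4 rises and 4 falls among called genes of the wider lists. Per the labels the arrays are biological replicates, and their number limits the precision of every value. Alternatives covered background, offset, scaling, filter, probe choice, fit, threshold, blocks and each array left out.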

Additional observations from a re-analysis of the deposited data

Results flagged for a closer look

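Among the 62 other WNT pathway genes, 11 differed between co-cultures and PA6 in their response to FGF2 (limma interaction term, beside 7.92% of all genes), and the 4 most positive and 4 most negative are given here, as the effect in co-cultures minus that in PA6 on the log2 scale. TLE3, a corepressor, had a difference of 1.81 ± 0.46 (SE, adjusted p = 0.0354), from effects of 0.34 and -1.47. GSK3A, a kinase that marks β-catenin for destruction, had 1.47 ± 0.35 (SE, adjusted p = 0.0233), from 0.23 and -1.24. APCDD1, a membrane inhibitor of WNT signalling, had 1.41 ± 0.44 (SE, adjusted p = 0.0782), from 1.09 and -0.32, and FZD5 had 1.31 ± 0.21 (SE, adjusted p = 0.00249), from 1.26 and -0.05.

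In the other direction FZD3 had -1.62 ± 0.46 (SE, adjusted p = 0.0548), from -1.56 and 0.05, and CCND1, the cyclin D1 gene, had -1.51 ± 0.32 (SE, adjusted p = 0.0141), from -0.53 and 0.98. FRZB had -1.43 ± 0.43 (SE, adjusted p = 0.0659), from -1.66 and -0.23, and FZD10 had -1.18 ± 0.29 (SE, adjusted p = 0.0295), from -1.27 and -0.09. APCDD1, FZD3 and FZD10 were undetected on all PA6 arrays with and without FGF2, so their PA6 effects are differences of background values. GSK3A passed the filter through PA6 without growth factors alone and was undetected in PA6 with FGF2 and in co-cultures without growth factors, so its PA6 effect is fixed by the filter. The count of 11 fell to 6 without co-culture FGF2 replicate 2, to 7 without PA6 -GFs replicate 2, to 6 without PA6 FGF2 replicate 2 and to 7 without PA6 FGF2 replicate 3.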

How the results depend on the processing

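Scaling each array to the same median moved the median change of all genes to between -0.21 (FGF2 in co-cultures) and 0.29 (BMP4 minus FGF2). The single calls of SFRP2 (FGF2 in co-cultures) and AXIN2 (BMP4 against FGF2) both became 0 without a filter and at an adjusted p under 0.05, and AXIN2 also with the replicate block. Detection required on all 16 arrays removed AXIN2 and most dim genes. SFRP2 became a call, 1 of the members, in the difference of FGF2 effects without background correction, with an offset of 50, with detection on all 16 arrays, with a trended robust prior and with the replicate block. For the 62 wider genes, FGF2 in co-cultures (7 called) gave 11 with median scaling, 2 with detection on all 16 arrays and 11 in 1 fit of all arrays. BMP4 in co-cultures (9) gave 4 without a filter, 0 with detection on all 16 arrays and 4 at an adjusted p under 0.05. BMP4 against FGF2 (7) gave 12 with median scaling, 4, 0, 11 and 3 under the other 4 settings (no filter, all 16 detected, 1 fit, adjusted p under 0.05) and 2 with the replicate block. FGF2 in PA6 (0) gave 1 in 1 fit of all arrays. With detection on all 16 arrays co-culture against PA6 gave 12 (no growth factor), 7 (FGF2) and 10 (BMP4), and the difference of FGF2 effects (11) gave 3, with 5 under median scaling, 6 without a filter and 6 at an adjusted p under 0.05. The causes were not tested, except that fewer genes enter a stricter filter.

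With 1 array left out the count of members called ran from 0 to 1 for FGF2 and for BMP4 against FGF2 in co-cultures, from 4 to 5, 4 to 4 and 5 to 6 between cultures, and from 0 to 1 for the difference of FGF2 effects. For the wider genes the ranges were 2 to 8 (FGF2), 3 to 8 (BMP4), 2 to 6 (BMP4 against FGF2), 31 to 36, 29 to 31 and 35 to 37 between cultures, and 6 to 14 for the difference. In PA6 all stayed at 0.

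Small values, none called, that changed sign were LRP6 for BMP4 against FGF2 (-0.020 with the order of file columns as a block, a setting chosen after seeing the data), SFRP1 (-0.018) and SFRP2 (-0.010) for FGF2 in PA6 and SFRP1 (-0.037) and AXIN2 (-0.0035) for BMP4 in PA6, all with median scaling, and AXIN2 (-0.057) for the difference of FGF2 effects without background correction. FZD6 changed sign with its dimmer probe, to 0.047 for FGF2 in PA6 and -0.64 for co-culture against PA6 with FGF2 (-0.042 for the mean of both probes). Where it was not tested it changed sign too, to 0.050 for FGF2 in co-cultures and -0.65 for co-culture against PA6 without growth factors. With 1 array left out, the ranges of tested genes that crossed 0 for FGF2 in co-cultures were -0.28 to 0.46 for LEF1 and -0.35 to 0.0070 for LRP6. For BMP4 against FGF2 they were -0.16 to 0.59 for SFRP2, -0.38 to 0.51 for LRP6 and -0.15 to 0.53 for SFRP1. In PA6 they were -0.27 to 0.29 for SFRP2 and -0.074 to 0.16 for SFRP1 (FGF2), and -0.027 to 0.30 for LEF1, -0.17 to 0.34 for AXIN2 and -0.31 to 0.30 for FZD6 (BMP4). Between cultures they were -0.010 to 0.64 for LEF1 (no growth factor) and -0.58 to 0.023 for LRP6 (FGF2), and in the difference of FGF2 effects -0.018 to 0.43 for FZD7 and -0.044 to 0.69 for LEF1. Among values without a test, SFRP1 (-0.56 to 0.13) and LRP6 (-0.55 to 0.34) crossed 0 for BMP4 against -GFs in co-cultures. FZD6 did so between cultures without growth factors (-0.087 to 0.52) and in the difference of FGF2 effects (-0.047 to 0.67).

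By the rule used the replicate numbers did not pair the arrays, so the main fits used no block. In PA6, however, every pair of the same number lay above every other pair. Arrays of the same number deviated from their group means with r of 0.069 to 0.20 in PA6 (9 pairs), where the other 18 pairs had -0.14 to -0.012. In co-cultures the r was -0.20 to 0.28 (6 pairs), and the other 10 pairs had -0.28 to 0.25. With that block, FGF2 called 987 of all genes in co-cultures in place of 1101, BMP4 246 in place of 557 and BMP4 against FGF2 11 in place of 214. The order of file columns, chosen after seeing the data, pairs the co-culture arrays otherwise (r of 0.097 to 0.28, 5 pairs), and as a block it gave 1059, 597 and 563, with 38.4% of the last higher with BMP4 in place of 52.3%, and kept the calls of SFRP2 and AXIN2. In PA6 both blocks are the same and gave 23 for FGF2 in place of 4.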
